A study of Mus musculus with 9 samples.

Results

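The genes described here encode the hydrolases and membrane proteins of the lysosome together with the V-ATPase, the proton pump that acidifies it. They were chosen by name, as 27 listed symbols and all symbols that start with Atp6v0 or Atp6v1, of which there were 23. All 50 were found among the 22972 gene names of the deposited tables. They comprised 8 proteases, 9 glycosidases and sulfatases, 4 lipid hydrolases and cofactors, 6 membrane proteins, 9 symbols of the membrane-embedded V0 sector and 14 of the cytosolic V1 sector. Among the latter, Atp6v1fnb is named as a neighbor of Atp6v1f and is not a subunit. The rule used no measured value, although the list was drawn up with earlier results of these data known.

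The RNA came from B16, a mouse melanoma cell line labelled WT and grown on flexible PDMS film, and 9 libraries were analyzed at day 3. They were 3 from control cells (CTL), 3 from cells under cyclic straining for 72 h (MS) and 3 from cells given blebbistatin, an inhibitor of non-muscle myosin II, at 100 ng/mL for 72 h (called the blebbistatin group here, and Blebb. in the plots). For the last group the labels mention the inhibitor without straining, whereas the study's own name for it includes both, so a difference from MS may stand for the inhibitor alone or for the inhibitor and the absence of straining. Replicates are labelled as parallel experiments of a single cell line. The study's device holds separate culture wells for such experiments, but how the wells map to these libraries is not stated, so p-values measure the spread between libraries of 1 cell line, part of which may be technical. Each value is in FPKM, the fragment count of a gene divided by its length and by the total of mapped fragments. The number of fragments per library is unknown, so no counting interval is given.

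Lysosomes break down proteins, glycans, lipids and nucleic acids delivered by endocytosis and autophagy, using hydrolases that work at acid pH. In pigment cells the compartment is close kin to the melanosome, which shares many of its membrane proteins and sorting routes. Many lysosomal genes carry in their promoter a palindromic element called CLEAR, which is bound by TFEB, TFE3 and MITF, transcription factors of a single family that switch lysosomal genes on.

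That element was looked up in the promoters of the genes, because it is the best known feature that lysosomal genes share outside their coding sequence. The windows, taken from RefSeq on GRCm38.p6, ran from 250 bases before to 50 bases after each gene's start, 300 bases in all, and 41 of the 50 genes had one. The motif CACGTG, the E-box, which reads the same on both strands, was present in 15 of these 41 genes (36.6%) and in 8.09% of the 27025 genes with a window. TCACGTGA, the core of the CLEAR element, which is also its own reverse complement and always contains CACGTG, was present in 8 of 41 (19.5%) and in 1.12% of all genes. The 8 genes were Ctsd, Ctsa, Gla, Cln3, Mcoln1, Atp6v0d1, Atp6v0e and Atp6v1a, which come from 5 of the 6 roles. The element was looked up because lysosomal genes are known to share it, so its higher share here is no separate finding. The 27025 genes were counted whatever their level, whereas 32 of the 41 averaged 1 FPKM or more over the 9 libraries. The stretches below are written 5′ to 3′ on the strand of the gene, with the motif in capitals, to show each copy with its flanks. A match describes these letters and does not show that a factor bound there.
Ctsd: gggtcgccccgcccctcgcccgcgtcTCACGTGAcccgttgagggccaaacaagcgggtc
Ctsa: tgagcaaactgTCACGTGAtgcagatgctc
Ctsa, downstream copy: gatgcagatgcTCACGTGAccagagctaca
Gla: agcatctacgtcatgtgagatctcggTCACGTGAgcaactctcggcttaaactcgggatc
Gla, upstream copy: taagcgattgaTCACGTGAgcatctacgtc
Cln3: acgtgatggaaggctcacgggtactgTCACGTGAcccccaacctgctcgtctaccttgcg
Mcoln1: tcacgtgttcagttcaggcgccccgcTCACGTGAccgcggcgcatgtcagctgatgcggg
Atp6v0d1: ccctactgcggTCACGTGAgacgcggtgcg
Atp6v0e: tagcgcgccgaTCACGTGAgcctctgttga
Atp6v1a: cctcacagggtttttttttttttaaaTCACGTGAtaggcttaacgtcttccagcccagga

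These stretches lie at chr7:142387893-142387952 on the minus strand for Ctsd, at chr2:164833749-164833778 and chr2:164833766-164833795 on the plus strand for Ctsa, and at chrX:134601167-134601226 and chrX:134601215-134601244 on the minus strand for Gla. Those of Cln3 (chr7:126583325-126583384, minus), Mcoln1 (chr8:3500447-3500506, plus), Atp6v0d1 (chr8:105566050-105566079, minus), Atp6v0e (chr17:26676387-26676416, plus) and Atp6v1a (chr16:44139358-44139417, minus) complete the set. The first base of the motif lay between -228, in the upstream copy of Gla, and 5, in the downstream copy of Ctsa, counted from the gene's start. Ctsa and Gla were the members with a pair of copies. The sequence around the motif differed between the genes, down to the long run of T before it in Atp6v1a. The genes Ctsb, Npc1, Asah1, Atp6v0a2, Atp6v0d2, Atp6v1b2, Atp6v1c1, Atp6v1g1 and Atp6v1h had no entry.

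The cells carried melanocytic markers and almost none of the other lysosome-rich cell types. All 8 melanoma markers were at 8.51 FPKM or more in every library, led by Pmel, the melanosome matrix protein, at 2079 to 6318 FPKM. Of 10 macrophage markers, which matter here because macrophages are rich in lysosomes, Ptprc, C1qa and C1qb were listed at 0 in every library, and the summed level was between 2.13 and 4.32 FPKM. Cd68, itself a lysosomal protein, and Lyz2 were the only 2 macrophage markers to reach 0.1 FPKM. The 7 fibroblast markers summed to at most 1.23 FPKM and the 5 keratinocyte markers to at most 0.0314 FPKM.

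Some libraries stood apart from the others of their group, and this bears on every result below. The columns summed to between 439939 and 484093 FPKM, and the first principal component of the log2 values held 70.4% of the variance across all genes tested. CTL 1 (-42.1) and blebbistatin 2 (-43.9) were lowest on it, MS 1 (35.8) was highest, and the 3 groups were mixed along it. Libraries of a group also differed in how their deviations from the gene means correlated with the GC content of the genes. These correlations were 0.45, -0.18 and -0.42 in the CTL libraries and -0.64, 0.057 and -0.16 in the MS libraries. In the blebbistatin libraries they were 0.55, 0.54 and -0.54, in the order of the replicates. Earlier results of these data had set apart CTL 1, MS 3 and blebbistatin 2, which come from 3 different groups, so results are given with and without these 3. On the first component MS 3 (-10.0) lay near blebbistatin 1 (-7.29) and far from CTL 1 and blebbistatin 2. Its correlation with GC content (-0.16) was also unlike theirs. The part of any of these differences between libraries in the results below was not tested. Since the RNA is from whole cultures, fewer cells of a kind and less RNA per cell cannot be told apart.

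Of the 50 genes, 40 averaged 1 FPKM or more across the 9 libraries and were tested, as were 10109 genes in all. By role, 7 of 8 proteases, 9 of 9 glycosidases and sulfatases, 4 of 4 lipid genes, 5 of 6 membrane proteins, 7 of 9 V0 symbols and 8 of 14 V1 symbols passed this minimum. All 50 together made up between 1.38% (MS 1) and 1.85% (blebbistatin 2) of the summed FPKM of a library. The share was 1.63% ± 0.164 (SD, n = 3) in CTL, 1.54% ± 0.146 in MS and 1.62% ± 0.214 in the blebbistatin group, so the 3 groups overlapped.

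Among the proteases, Ctsd, the aspartic protease cathepsin D, was the most abundant of all 50 genes per length. It was at 2041, 1590 and 1317 FPKM in CTL 1, 2 and 3, at 1288, 1634 and 1573 FPKM in MS 1, 2 and 3, and at 1777, 2089 and 1399 FPKM in blebbistatin 1, 2 and 3. The highest libraries were CTL 1 and blebbistatin 2, the lowest were MS 1 and CTL 3, and the groups overlapped. Ctsz, the carboxypeptidase cathepsin Z, was at 397, 315 and 300.1 in the CTL libraries, 274, 317 and 385 in the MS libraries and 306, 377 and 282 FPKM in the blebbistatin libraries. Its highest 3 values came from 3 different groups. The other proteases reached lower levels per length. Ctsb, an abundant cysteine cathepsin, had a mean of 164 FPKM over the 9 libraries and was the steadiest of the 40 genes, with a highest value 1.20 times its lowest. Ctsa, the protective protein of the neuraminidase complex, had a mean of 112 FPKM, Tpp1, a tripeptidyl peptidase, 43.2 FPKM, Ctsl, a cysteine cathepsin, 37.2 FPKM and Ctsc, the dipeptidyl peptidase that activates granule proteases, 3.76 FPKM. Ctsk, the cathepsin of osteoclasts, was at most 0.0707 FPKM in any library.

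The glycosidases and sulfatases remove sugars and sulfates from glycans and glycolipids, and all 9 were expressed. Hexa, the alpha subunit of hexosaminidase A, led them at 479, 323 and 317 in the CTL libraries, 307, 335 and 394 in the MS libraries and 421, 466 and 292 FPKM in the blebbistatin libraries, in the order of the replicates. Gaa, the acid alpha-glucosidase that degrades glycogen, was at 230.3, 164 and 136 in the CTL libraries, 103, 158 and 177 in the MS libraries and 171, 246 and 131 FPKM in the blebbistatin libraries. For both, CTL 1 and blebbistatin 2 held the highest 2 values and the groups overlapped. The means over the 9 libraries of the others were 145 FPKM for Naglu and 16.9 FPKM for Sgsh, which degrade heparan sulfate, 112 FPKM for Gusb, the beta-glucuronidase, and 52.9 FPKM for Glb1, the beta-galactosidase. Neu1, the sialidase, had a mean of 39.7 FPKM, Man2b1, an alpha-mannosidase, 33.4 FPKM, and Gla, the alpha-galactosidase, 5.46 FPKM. Gla was the lowest of the 9 by mean and Gusb the steadiest, with a highest value 1.24 times its lowest.

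Of the genes of lipid breakdown, Psap, the precursor of the saposins that present lipids to their hydrolases, was at 395, 378 and 383 in the CTL libraries, 307, 411 and 363 in the MS libraries and 427, 451 and 321 FPKM in the blebbistatin libraries. The CTL libraries were close to each other and lay inside the range of both other groups. Npc2, which hands cholesterol over within the lumen, was at 147, 97.7 and 91.1 in the CTL libraries, 97.4, 97.7 and 126 in the MS libraries and 103, 129 and 77.9 FPKM in the blebbistatin libraries, again with 1 high library in each group. Asah1, the acid ceramidase, had a mean of 37.8 FPKM over the 9 libraries and Ppt1, a palmitoyl-protein thioesterase, 25.6 FPKM.

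The membrane proteins differed in how they varied. Lamp1, a major glycoprotein of the lysosomal membrane, was at 486, 396 and 403 in the CTL libraries, 356, 412 and 457 in the MS libraries and 426, 474 and 344 FPKM in the blebbistatin libraries. Lamp2, its paralog, needed for chaperone-mediated autophagy, was at 65.7, 68.3 and 68.2 in the CTL libraries, 96.6, 64.0 and 101 in the MS libraries and 53.4, 53.0 and 77.5 FPKM in the blebbistatin libraries. Its highest 2 values were MS 1 and MS 3, whereas MS 2 was below all 3 CTL libraries. Lamp2 was the gene of the 40 with the largest part of its variance between the groups (46.1%, against a median of 10.4% over the 40 genes and 12.7% over all genes tested). Npc1, the membrane transporter that takes cholesterol out of the lysosome, had a mean of 29.6 FPKM and the widest range of the 40, with a highest value 2.58 times its lowest. It was at 43.2 FPKM in CTL 1, 39.3 in MS 3 and 44.2 in blebbistatin 2, and between 17.1 and 25.7 FPKM in the other 6 libraries. Mcoln1, the calcium channel of the lysosomal membrane, had a mean of 18.5 FPKM and Scarb2, the receptor that carries glucocerebrosidase to lysosomes, 12.1 FPKM. Cln3, the battenin membrane protein, was at most 0.620 FPKM, and it is among the genes listed above with the CLEAR core.

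**Figure D1:**
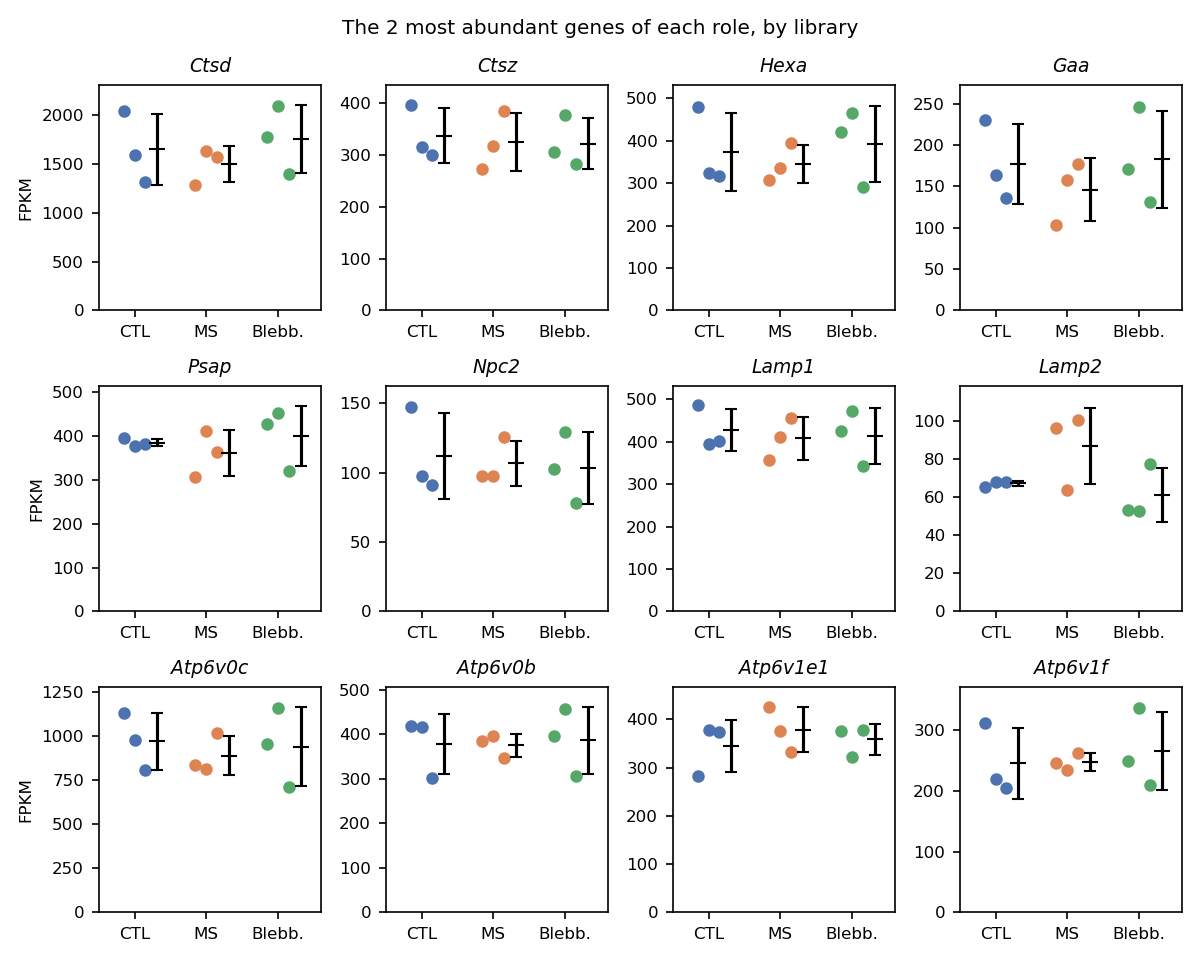
FPKM (vertical axes, starting at 0) of the 2 most abundant genes of each role in the CTL, MS and blebbistatin (Blebb.) groups. Points are single libraries in the order of replicates 1 to 3, and the bar beside them is the mean ± SD (n = 3). Ctsd reaches 2089 FPKM in blebbistatin 2, the groups overlap in every panel, and CTL 1 lies above CTL 2 and CTL 3 in 10 of the 12 panels, Lamp2 and Atp6v1e1 being the exceptions.

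The V-ATPase couples ATP hydrolysis in V1 to proton transport through V0, and several of its subunits have paralogs that differ between tissues. Of the V0 genes, Atp6v0c, the proteolipid of the rotor ring, was the most abundant at 1129, 977 and 806 in the CTL libraries, 836, 812 and 1016 in the MS libraries and 952, 1156 and 709.99 FPKM in the blebbistatin libraries. Atp6v0b, another proteolipid, was at 419, 416 and 301 in the CTL libraries, 384, 396 and 347 in the MS libraries and 396, 456 and 307 FPKM in the blebbistatin libraries. For both, CTL 3 and blebbistatin 3 were the lowest 2 libraries and the groups overlapped. Of the V1 genes, Atp6v1e1, a stalk subunit, was at 283, 379 and 374 in the CTL libraries, 426, 376 and 333 in the MS libraries and 375, 322 and 379 FPKM in the blebbistatin libraries. It was the gene of the 40 for which CTL 1, MS 3 and blebbistatin 2 were the lowest 3 libraries. Atp6v1f, a subunit of the central rotor, was at 312, 220.2 and 205 in the CTL libraries, 246, 235 and 263 in the MS libraries and 250.2, 337 and 211 FPKM in the blebbistatin libraries, with the same 3 libraries highest. The catalytic subunit Atp6v1a had a mean of 49.8 FPKM over the 9 libraries, and Atp6v1h and Atp6v1d had means of 42.0 and 33.6 FPKM.

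The V-ATPase subunits with paralogs fell into a pair of patterns, with several forms expressed for subunits a and e and a single form for the others. For subunit a, Atp6v0a1 had a mean of 101 FPKM over the 9 libraries, Tcirg1, the a3 form, which the name rule does not hold, 69.0 FPKM and Atp6v0a2 34.3 FPKM, while Atp6v0a4, the form of kidney and inner ear, was at most 0.467 FPKM. In each of the groups, Atp6v0a1 made up a mean of 46.3% to 50.7% of the summed FPKM of the 4 forms. For subunit e, both forms were expressed, with means of 190.4 FPKM for Atp6v0e and 154 FPKM for Atp6v0e2. For the remaining paralogous subunits a single form carried nearly all of the level. Atp6v0d1 had a mean of 131 FPKM and Atp6v0d2 at most 0.0133 FPKM, Atp6v1b2 a mean of 109 FPKM and Atp6v1b1 at most 0.0169 FPKM, and Atp6v1c1 a mean of 55.4 FPKM and Atp6v1c2 at most 0.111 FPKM. Atp6v1g1 had a mean of 219.8 FPKM and Atp6v1g2 at most 0.899 FPKM. Atp6v1e2, a form of testis, and Atp6v1g3 were listed at 0 in all 9 libraries, and Atp6v1fnb was at most 0.0469 FPKM.

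**Figure D2:**
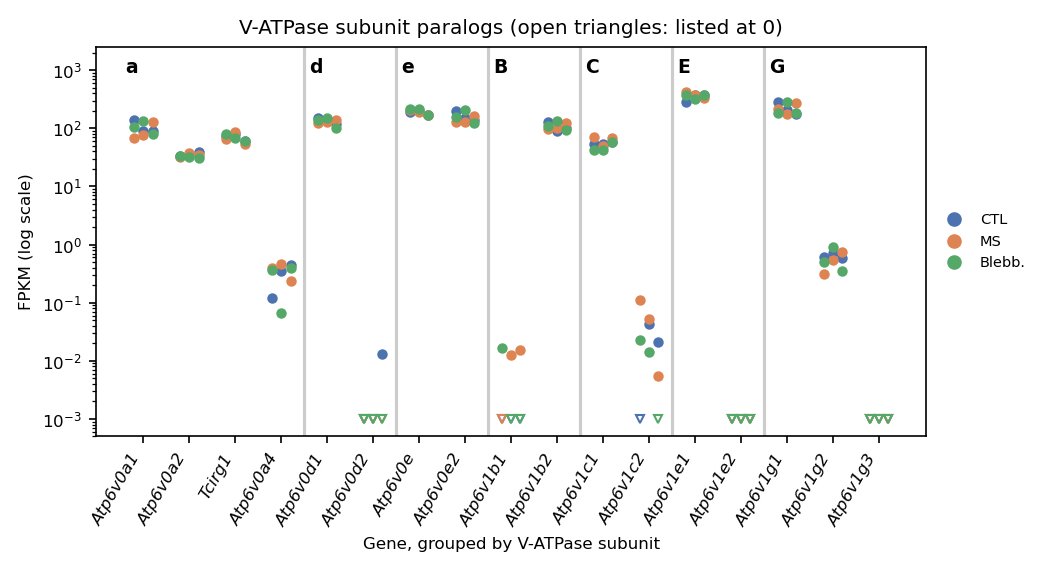
FPKM (logarithmic axis) of the V-ATPase subunits that have paralogs, grouped by subunit letter. Each point is a library, placed left to right by replicate number and colored by group, and open triangles at the foot mark libraries listed at 0. The a subunit has 3 forms above 30 FPKM and the e subunit has 2, whereas the B, C, d, E and G subunits each have a single form above 1 FPKM.

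The 40 genes tended to be high in the same libraries, and these came from different groups. CTL 1 was among the 3 highest of the 9 libraries for 29 of the 40 genes (72.5%), MS 3 for 32 (80%) and blebbistatin 2 for 28 (70%). Over all 10109 genes tested the same shares were 33.6%, 36.7% and 39.2%. Each of the other 6 libraries was among the 3 highest for between 2 and 9 of the 40 genes. The 3 libraries were together the highest 3 for 22 of the 40 genes (55%), against 15.8% of all genes tested, and together the lowest 3 for 1 of the 40, Atp6v1e1 (2.5%), against 16.1% of all genes tested. These libraries were picked with earlier results of the same data known, and the counts are given without a test.

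The pattern was spread over the roles. It held for 6 of 9 glycosidases and sulfatases, 4 of 7 proteases, 2 of 4 lipid genes, 3 of 5 membrane proteins, 4 of 7 V0 genes and 3 of 8 V1 genes. Lamp2 and the V1 genes Atp6v1a, Atp6v1c1, Atp6v1d and Atp6v1h were among those that did not follow it. Atp6v1a, for example, was at 35.4, 58.4 and 58.7 in the CTL libraries, 67.4, 40.6 and 64.8 in the MS libraries and 36.0, 28.7 and 58.3 FPKM in the blebbistatin libraries, so that blebbistatin 2, CTL 1 and blebbistatin 1 were its lowest 3 libraries. At the low end, blebbistatin 3 was the lowest library for 12 of the 40 genes (30%), against 10.4% of all genes tested. MS 1 was lowest for 11 (27.5%), against 14.0%. CTL 1, MS 3 and blebbistatin 2 were lowest for 1, 1 and 3 of the 40, against 19.7%, 10.3% and 19.3% of all genes tested.

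Part of the genes of the integrated stress response had the same 3 libraries at the top. CTL 1, MS 3 and blebbistatin 2 were the highest 3 for 6 of the 10 stress genes read, namely Atf4, Ddit3, Trib3, Chac1, Asns and Sesn2. Trib3, a pseudokinase induced by stress, was at 153 FPKM in CTL 1, 103 in MS 3 and 183 in blebbistatin 2, and between 19.4 and 41.7 FPKM in the other 6. The remaining 4 did not follow. Atf3 was highest in MS 1, Psat1 and Phgdh, enzymes of serine synthesis, were highest in blebbistatin 1, and Slc7a11, the cystine transporter, was lowest in blebbistatin 2 (1.60 FPKM) and CTL 1 (1.69 FPKM) and highest in MS 1 (11.9 FPKM). The summed level of the 10 genes ran from 726 to 1543 FPKM in CTL, from 731 to 1243 FPKM in MS and from 756 to 1555 FPKM in the blebbistatin group. Melanoma markers moved with them in part, 4 of 8 having the same highest 3 libraries. The part of these in the lysosomal pattern was not tested.

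**Figure D3:**
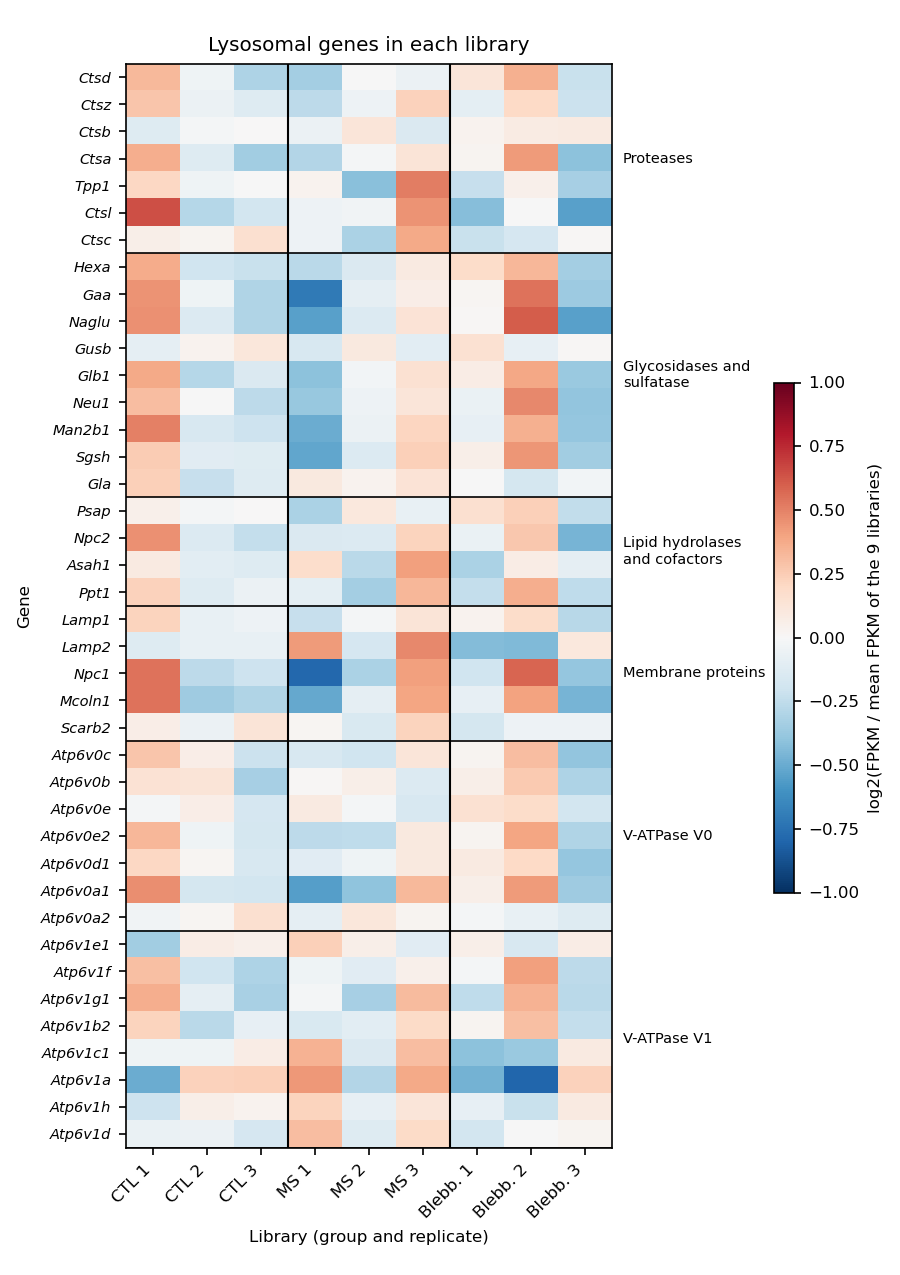
The log2 ratio of each library's FPKM to the gene's mean over the 9 libraries (color scale) for the 40 genes tested, by role, with libraries in columns and groups divided by black lines. The columns CTL 1, MS 3 and blebbistatin 2 are mostly red, while Lamp2, Atp6v1a, Atp6v1c1, Atp6v1e1 and Atp6v1h break the pattern.

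**Figure D4:**
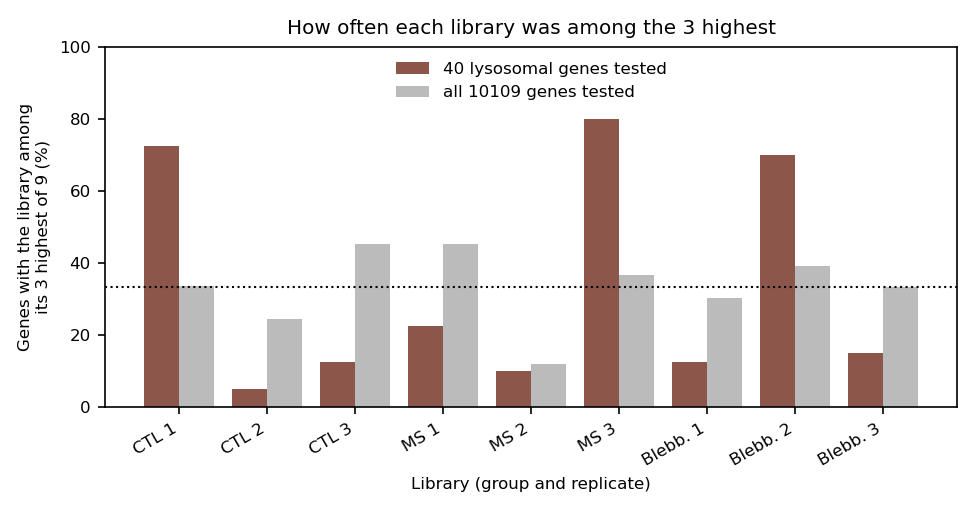
Percent of genes (vertical axis) for which each library (horizontal axis) was among the 3 highest of 9, for the 40 lysosomal genes and for all 10109 genes tested, with a dotted line at the level of an even spread. MS 3 reaches 80% of the lysosomal genes and 36.7% of all genes.

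Beside this spread the differences between groups were small. The highest library was between 1.20 and 2.58 times the lowest for the 40 genes, with a median of 1.63, against a median of 1.73 over all genes tested. Fold changes below are differences of mean log2(FPKM + 1), a scale that understates changes of low genes, and were tested in limma over all 10109 genes with Benjamini-Hochberg adjustment. The 3 comparisons share libraries in pairs and are not independent. SEs of the 40 genes were between 0.11 and 0.35 on this scale.

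The comparison of MS with CTL asks what cyclic straining did. No lysosomal gene passed the test, with 0 of the 40 under an adjusted p of 0.05 in limma, as for 0% of all genes tested. At an unadjusted p under 0.05 there were 0 of the 40, against 0.158% of all genes. No member had groups without overlap, against 3.17% of all genes. Of the 40 genes, 15 were above 0 and 25 below, with a median log2 fold change of -0.037, beside 49.5% above 0 and a median of -0.0018 over all genes, and single genes lay between -0.28 (Gaa) and 0.34 (Lamp2). The count above 0 rested on single libraries, being 27 without CTL 1, 26 without MS 1 and 10 without MS 3. Without CTL 1, MS 3 and blebbistatin 2 the median of the 40 was -0.0068.

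Lamp2 had the smallest p of the 40 in this comparison. It averaged 67.4 ± 1.49 FPKM in CTL and, in MS, 87.1 ± 20.1 FPKM (SD, n = 3 each). The log2 fold change was 0.34 (SE 0.20, 95% interval -0.12 to 0.80), with an adjusted p of 1.00 in limma. Atp6v1d, a rotor subunit of V1, was at 32.1, 32.3 and 29.9 in the CTL libraries, 41.6, 30.8 and 38.5 in the MS libraries and 29.6, 33.5 and 34.3 FPKM in the blebbistatin libraries. Its log2 fold change was 0.22 (SE 0.14, interval -0.09 to 0.52). Atp6v1c1, the regulatory subunit C, was at 53.9, 53.7 and 58.3 in the CTL libraries, 70.6, 50.3 and 68.8 in the MS libraries and 41.7, 42.8 and 58.9 FPKM in the blebbistatin libraries, with a log2 fold change of 0.17 (SE 0.18, interval -0.22 to 0.57) for MS against CTL. In all 3 genes MS 1 and MS 3 were above every CTL library and MS 2 was not. Without MS 2 the log2 fold changes were 0.54 for Lamp2, 0.34 for Atp6v1d and 0.33 for Atp6v1c1, without MS 1 they were 0.13 for Atp6v1d and 0.088 for Atp6v1c1, and without MS 3 they were 0.22 for Lamp2 and 0.11 for Atp6v1c1. With the GC trend removed they were 0.094, 0.038 and 0.043, in the same order of genes.

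By role, all 8 V1 genes were above 0, with a median of 0.13, and 8 of 9 glycosidases and sulfatases were below 0, with a median of -0.11. The V1 count was 6 of 8 once the trend with GC content had been taken out of each library (median 0.041), 7 of 8 after quantile normalization and 7 of 8 without the 3 libraries named above (median 0.067). The median of the glycosidases and sulfatases was 0.034 without CTL 1 and 0.023 without MS 1. The fold changes of all genes followed their GC content. Among genes under the median GC content of 49.9%, 11 of 17 members were above 0, against 76.1% of all such genes, and among the rest 4 of 23 members, against 22.7%.

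Between the blebbistatin group and MS, a difference may stand for the inhibitor alone or for the inhibitor and the absence of straining. Again 0 of the 40 genes passed the adjusted threshold in limma, as for 0% of all genes. At an unadjusted p under 0.05 there were 2, both lower in the blebbistatin group, Lamp2 and Atp6v1c1, against 1.25% of all genes, or 0.524% of all genes in the same direction. Of the 40, 22 were above 0 with a median of 0.021, beside 49.0% and -0.0059 over all genes, and the range was -0.51 (Atp6v1a) to 0.31 (Gaa). The count above 0 was 10 without blebbistatin 2, and 11 with a block by the first principal component, which sets CTL 1, MS 3, blebbistatin 1 and blebbistatin 2 against the other 5. Without the 3 libraries the median was -0.018.

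Lamp2 was at 61.3 ± 14.0 FPKM (SD, n = 3) in the blebbistatin group. Blebbistatin 1 and 2 were below all other libraries, while blebbistatin 3 lay above MS 2. The log2 fold change against MS was -0.49 (SE 0.20, 95% interval -0.95 to -0.035), with an unadjusted p of 0.0377 and an adjusted p of 0.897 in limma. It was -0.29 without the 3 libraries and -0.14 with the GC trend removed. Atp6v1c1 was at 63.2 ± 11.2 FPKM in MS and 47.8 ± 9.66 FPKM in the blebbistatin group, with a log2 fold change of -0.40 (SE 0.18, interval -0.79 to -0.0012), an unadjusted p of 0.0494 and an adjusted p of 0.897 in limma. It was -0.26 without the 3 libraries and -0.15 with the GC trend removed. Ctsl was at 58.0, 30.5 and 32.6 in the CTL libraries, 36.0, 36.3 and 50.9 in the MS libraries and 27.7, 37.0 and 25.6 FPKM in the blebbistatin libraries. Its log2 fold change was -0.44 (SE 0.26, interval -1.02 to 0.15), and blebbistatin 2 lay inside the MS range. With the block by principal component it was -0.62 (unadjusted p 0.00259, adjusted p 0.956 in limma), without the 3 libraries -0.43 (unadjusted p 0.0119, adjusted p 0.998), without MS 3 -0.28 and with the GC trend removed -0.18. In the fit of all libraries without a block the unadjusted p was 0.128 in limma. The block was drawn from the same values that were tested, so its smaller p is no separate support.

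Gla was the member whose groups did not overlap in this comparison, against 3.73% of all genes, and it was lower in the blebbistatin group, against 0.683%. It was at 6.44, 4.66 and 5.00 in the CTL libraries, 5.84, 5.59 and 6.001 in the MS libraries and 5.44, 4.83 and 5.35 FPKM in the blebbistatin libraries. The log2 fold change was -0.14 (interval -0.47 to 0.20), and the CTL libraries spanned a wider range than both other groups together. The V1 genes were 6 of 8 below 0, with a median of -0.12, which was 0.019 with the GC trend removed, and the glycosidases and sulfatases were 8 of 9 above 0, with a median of 0.12. Without blebbistatin 2 the latter median was -0.054. Both this comparison and MS against CTL use the MS libraries, so their values are not independent. Under the median GC content, 4 of 17 members were above 0, against 20.4% of all such genes, and over it 18 of 23, against 78.8%.

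The blebbistatin group was also compared with CTL, where a difference may stand for the inhibitor alone or for the inhibitor and straining. Here 0 of the 40 genes passed the adjusted threshold in limma, as for 0% of all genes, and 0 had an unadjusted p under 0.05, against 0.0890% of all genes. A total of 18 of the 40 were above 0, with a median of -0.018, beside 46.0% and -0.013 over all genes, and the range was -0.37 (Ctsl) to 0.12 (Ctsb). This balance turned with single libraries, since 29 were above 0 without CTL 1 and 29 without blebbistatin 3, but 7 without CTL 3, 7 without blebbistatin 2 and 11 without CTL 2. With the block by principal component 6 were above 0 and the median was -0.15, and without the 3 libraries the median was -0.043. Ctsl had the smallest p, with a log2 fold change of -0.37 (SE 0.26, interval -0.96 to 0.22). It was -0.086 without CTL 1, its highest library, -0.25 with the GC trend removed and -0.24 without the 3 libraries, whereas it was -0.54 without CTL 2, -0.53 without blebbistatin 2 and -0.56 with the block (unadjusted p 0.00513, adjusted p 0.999 in limma). In the fit of all libraries without a block the unadjusted p was 0.187 in limma, and the block was again drawn from the values tested. Atp6v1c1 had a log2 fold change of -0.22 (SE 0.18, interval -0.62 to 0.17), which was -0.38 without blebbistatin 3 (unadjusted p 0.0473, adjusted p 0.900 in limma), -0.14 without blebbistatin 1 and -0.10 with the GC trend removed. Atp6v0a2 was at 33.4, 34.7 and 38.3 in the CTL libraries, 32.2, 37.1 and 34.9 in the MS libraries and 33.8, 32.6 and 31.3 FPKM in the blebbistatin libraries, with a log2 fold change of -0.12 (SE 0.11, interval -0.37 to 0.13) against CTL, which was -0.063 without CTL 3.

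Both members without overlap between the blebbistatin group and CTL were proteases, and such genes made up 2.08% of all genes tested, 0.930% higher and 1.15% lower in the blebbistatin group. Ctsb was higher, at 168, 174 and 175 FPKM in the blebbistatin group beside 151, 162 and 165 in CTL, a log2 fold change of 0.12 (interval -0.13 to 0.36). Ctsc was lower, at 3.23, 3.35 and 3.78 FPKM in the blebbistatin group beside 3.91, 3.82 and 4.20 in CTL, a log2 fold change of -0.16 (interval -0.54 to 0.22). The gaps between the nearest libraries of the groups were narrow in both, and MS overlapped with both groups.

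**Figure D5:**
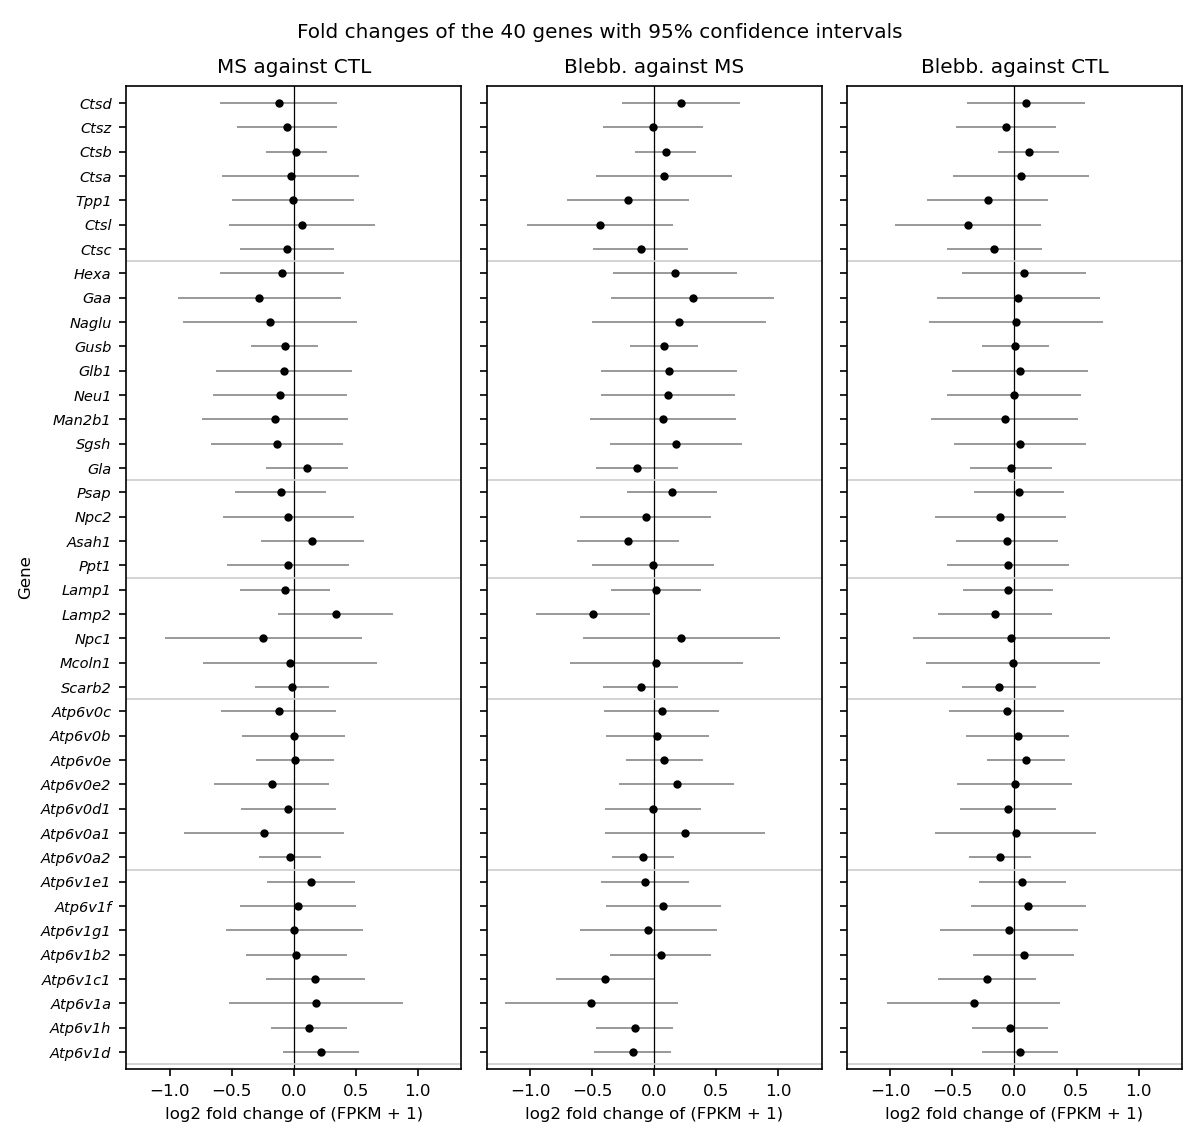
Log2 fold changes of FPKM + 1 (horizontal axes) with 95% confidence intervals from limma for the 40 genes, by comparison, with gray lines between roles. The intervals of MS against CTL and of the blebbistatin group against CTL all span 0, and in the blebbistatin group against MS those of Lamp2 and Atp6v1c1 lie below it, before any adjustment for the number of genes.

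The 10 genes under the minimum were compared separately. Atp6v1e2 and Atp6v1g3 were listed at 0 throughout. The other 8, Ctsk, Cln3, Atp6v0a4, Atp6v0d2, Atp6v1b1, Atp6v1c2, Atp6v1fnb and Atp6v1g2, gave 24 exact two-sided permutation tests with a smallest p of 0.2, in a design of 3 against 3 that allows no p under 0.1. Cln3, the membrane protein among them, averaged 0.370 ± 0.0947 FPKM in CTL, 0.391 ± 0.0431 in MS and 0.530 ± 0.119 in the blebbistatin group (SD, n = 3).

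The transcription factors of the TFEB family were expressed in the cells, with the exception of Tfec. Tfeb was at 16.1, 13.8 and 11.5 in the CTL libraries, 9.33, 12.7 and 12.7 in the MS libraries and 14.5, 17.4 and 11.6 FPKM in the blebbistatin libraries. Tfe3 was at 42.8, 32.9 and 30.1 in the CTL libraries, 26.2, 31.2 and 39.0 in the MS libraries and 37.1, 44.7 and 27.6 FPKM in the blebbistatin libraries, and had CTL 1, blebbistatin 2 and MS 3 as its highest 3 libraries. Mitf, the melanocyte member, was at 9.50, 27.2 and 28.8 in the CTL libraries, 36.2, 16.7 and 21.2 in the MS libraries and 14.2, 8.51 and 30.7 FPKM in the blebbistatin libraries, with its lowest 2 values in blebbistatin 2 and CTL 1. Tfec was at most 0.0986 FPKM. None of the tested 3 passed the adjusted threshold in any comparison in limma. For MS against CTL the log2 fold changes were -0.23 (SE 0.19) for Tfeb, -0.13 (SE 0.22) for Tfe3 and 0.24 (SE 0.52) for Mitf, the last turning to -0.24 without CTL 1. For the blebbistatin group against MS they were 0.29 (SE 0.19), 0.17 (SE 0.22) and -0.56 (SE 0.52).

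A further list of 124 lysosome and autophagy genes outside the 50, of which 115 were tested, was read in the same way. In limma 0 of the 115 passed the adjusted threshold in any comparison, with 0, 1 and 0 genes at an unadjusted p under 0.05 in MS against CTL, the blebbistatin group against MS and the blebbistatin group against CTL, beside 0.158%, 1.25% and 0.0890% of all genes. Their median log2 fold changes were -0.026, 0.042 and -0.021. CTL 1, MS 3 and blebbistatin 2 were the highest 3 libraries for 40 of the 115 genes (34.8%). That share was 16 of 32 for other hydrolases and 12 of 23 for other membrane proteins, and 1 of 17 for regulators of lysosomal genes and nutrient sensing.

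Genes of this list with the smallest p are given for each comparison. In MS against CTL they were Cln6, an endoplasmic reticulum protein needed to export lysosomal enzymes, with a log2 fold change of -0.23 (SE 0.13) and no overlap between the groups, and Cd68, with 0.26 (SE 0.19). Cln6 was at 56.3, 51.0 and 50.4 FPKM in CTL and between 43.7 and 45.4 FPKM in MS. Of the 115, 2 had no overlap between these groups, against 3.17% of all genes, the other being Atg7, an enzyme of autophagosome formation, which was higher in MS, at 0.15 on the log2 scale. Cln6 was at -0.14 with the GC trend removed, and Cd68 at 0.17 without MS 1, 0.42 without MS 3 and 0.49 without the 3 libraries. In the blebbistatin group against MS they were Nbr1, an autophagy receptor, with -0.46 (SE 0.20, unadjusted p 0.0475, adjusted p 0.897 in limma), and Vps41, a subunit of the HOPS tethering complex, with -0.65 (SE 0.29, unadjusted p 0.0527). Nbr1 was at 20.2, 13.5 and 22.3 FPKM in MS and 11.7, 11.8 and 15.8 FPKM in the blebbistatin group, so that MS 2 fell among the latter, as it did for Lamp2. Without the 3 libraries the log2 fold changes were -0.26 for Nbr1 and -0.38 for Vps41. In the blebbistatin group against CTL they were Nbr1, with -0.32 (SE 0.20), and Ap3b1, with -0.27 (SE 0.18). Ap3b1 encodes a subunit of the AP-3 adaptor, which sorts cargo to lysosomes and melanosomes. Between the blebbistatin group and MS, 1 of the 115 had no overlap (3.73% of all genes), Cln6, higher in the blebbistatin group. Between the blebbistatin group and CTL, 2 had none (2.08% of all genes), the hydrolase Ids and the regulator Rragc, both lower in the blebbistatin group.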

How the data were processed

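RNA was extracted with TRIzol and sequenced on an Illumina platform for 9 libraries of B16 cells, 3 each for CTL, MS and blebbistatin. The authors deposited FPKM, already scaled by gene length and mapped fragments. The aligner and counting program are not given in the sources used here, and the submitters' processing notes name GRCm38 and mm10. The column of CTL 1 is headed by the sample's name and was taken to hold FPKM, since its sum is near the other columns'. No pair of libraries held identical values (0 pairs). Depth is unknown, so precision was judged from the replicates.

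Genes averaging 1 FPKM or more were fitted as log2(FPKM + 1) in limma 3.58.1 (R 4.3.3), with lmFit on the 3 groups over all 9 libraries then eBayes with trend. P-values are two-sided and were adjusted by Benjamini-Hochberg across the genes tested, at a threshold of 0.05. An exact permutation test served for members below the minimum. The limma fit of MS against CTL was checked on simulated data, with genes drawn independently of each other. The other steps were not simulated. GC content came from GENCODE M21 transcripts and was known for 9663 genes tested and all 40 members tested. Promoters came from RefSeq on GRCm38.p6, and motifs were searched on both strands. Plots were drawn with matplotlib 3.10.9.

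The members, the gene lists and the alternatives were chosen with earlier results of these data known. Genes named by rule with a value in every library were the 2 most abundant of each role, Tfeb, Tfe3 and Mitf. The 3 members with the smallest unadjusted p in each comparison were given in the same way. Also named by rule, with fewer values, were the other V-ATPase paralogs, Tfec, and 2 other lysosome or autophagy genes with the smallest p per comparison. Gla and Atp6v1a, printed for every library, and Ctsb, Ctsc and Npc1, printed in part, were added after their values were seen. So were Atg7, Ids and Rragc. The alternatives changed the pseudocount (to 0.1), the minimum (none, or 5 FPKM), the scaling (median-of-ratios factors of 0.937 to 1.07, or quantile normalization), the trend (none) and the libraries in the fit (the compared groups alone), or added a replicate block, removal of each library's GC trend (loess, span 0.5), a block by the first principal component, omission of 3 libraries together, and omission of each in turn.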

Additional observations from a re-analysis of the deposited data

How the results depend on the processing

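Under every alternative run, 0 of the lysosomal genes passed the adjusted threshold in limma in each of the 3 comparisons. At an unadjusted p under 0.05 there were 0 to 2 members in MS against CTL (2 without MS 2), 0 to 3 in the blebbistatin group against MS (3 without blebbistatin 3 or without MS 2, 0 with the GC trend removed) and 0 to 2 in the blebbistatin group against CTL (2 with the block by principal component). In the fits reported, the shares over all genes were 0.158%, 1.25% and 0.0890%. Those shares were not worked out for the alternatives, so it is unknown whether these counts of members stand out there. With each library left out in turn, the median log2 fold change of the members ran from -0.14 to 0.046 in MS against CTL, from -0.098 to 0.16 in the blebbistatin group against MS and from -0.15 to 0.098 in the blebbistatin group against CTL. It thus took both signs in each comparison. All these medians lay within 0.205 of the values reported. That figure is the SD between replicates of the members' median level in a single library, a wider measure than the spread of a fold change. The replicate number as a block changed no call, and the smallest adjusted p of a member in the blebbistatin group against MS was then 0.949. Across genes, deviations from the group means correlated between -0.78 and 0.84 for libraries sharing a number. For the other pairs of libraries from different groups the correlations ran from -0.88 to 0.92. Such deviations cancel within each group of 3 by construction, so these correlations cannot settle whether the numbers pair the libraries. Sign changes of single genes were followed only for those named for a small p and for the TFEB family. Of these, Mitf and Tfe3 turned sign, both in MS against CTL. Mitf was at -0.18 without the 3 libraries together. With each left out it ran from -0.24 without CTL 1 to 0.51 without CTL 3, with -0.058 without MS 1. Tfe3 ran from -0.28 without MS 3 to 0.010 without CTL 1. The counts above 0 given with each comparison show that members outside the genes followed turned sign as well. The V1 median in the blebbistatin group against MS moved to 0.019 with the GC trend removed. The cause of these shifts was not tested. With unknown depth and 3 libraries a group, differences smaller than the intervals given could not be seen.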

Other observations

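Sqstm1, the autophagy receptor p62, was the most abundant of the autophagy genes at 1181 to 1524 FPKM, and Cd63, a tetraspanin of lysosomes and melanosomes, was at 1026 to 1594 FPKM, so that both stood beside Ctsd and Atp6v0c in level per length. Among the other hydrolases Scpep1, a serine carboxypeptidase, was highest by mean (190.3 FPKM), followed by Ppt2 (169 FPKM). Several hydrolases and membrane proteins typical of blood cells were near 0, with Ctss at most 0.0192 FPKM, Ctsw 0.0401 FPKM, Acp5 0.188 FPKM, Laptm5 0.275 FPKM and Slc11a1 0.501 FPKM. The macrophage marker Cd68 was higher, at up to 2.84 FPKM. Lamp3 was at most 0.0594 FPKM. These genes were named after their values were seen.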
